A study of Homo sapiens with 12 samples.

Results

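RSAD2, CMPK2 and SAMHD1 are 3 interferon-inducible genes whose proteins act on the nucleotides that viruses need, and they are described here as 3 of the 60669 gene identifiers in a table of RNA-seq counts. They were taken by their Ensembl identifiers. The samples were HT1080 cells, a human fibrosarcoma line, and all of them stably carried dCas9, a Cas9 that binds DNA without cutting it, under a CRISPR interference genotype. Cells labelled dCas9_CRISPRi_LTR8B.SP140 had a guide RNA directed to a copy of LTR8B, which is the promoter-bearing end repeat of an endogenous retrovirus, within intron 1 of SP140 (LTR8B cells below). Cells labelled dCas9_CRISPRi_GFP had a control guide against GFP (GFP cells below). Each line was kept under blasticidin and puromycin selection, and was either given the type I interferon IFNB, 10 U/mL over 4 h, or left untreated. There were 4 LTR8B IFNB, 4 LTR8B untreated, 2 GFP IFNB and 2 GFP untreated libraries. The labels do not say whether a line was a clone or a pool, nor whether replicates were separate cultures, so p-values cover the spread between these libraries, which may be technical.

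Viperin, the product of RSAD2, is a radical-SAM enzyme that converts CTP to ddhCTP, a chain-terminating analogue that some viral RNA polymerases incorporate. CMPK2 is a mitochondrial kinase that phosphorylates CMP and UMP and their deoxy forms, and it lies beside RSAD2 in vertebrate genomes. SAMHD1 hydrolyses dNTPs to nucleosides and triphosphate and thereby limits reverse transcription in resting and myeloid cells. Type I interferon signals through the receptor chains IFNAR1 and IFNAR2 and the kinases JAK1 and TYK2 to a complex that includes STAT2 and IRF9 and binds interferon-stimulated response elements (ISREs) in target promoters.

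RSAD2 (ENSG00000134321.12) lies on chromosome 2 at 6865806 to 6898239 of hg38, plus strand, and its principal transcript has 6 exons and 3519 bases. CMPK2 (ENSG00000134326.11) lies head to head with it at 6840570 to 6866635, minus strand, and its principal transcript has 5 exons and 2884 bases. The 2 genes overlap by 830 bases through upstream start sites, with 14 shared exon bases over all annotated transcripts and 0 between the principal transcripts. SAMHD1 (ENSG00000101347.10) lies on chromosome 20 at 36889773 to 36951901, minus strand, with 16 exons and 5298 bases in its principal transcript. These positions are from GENCODE release 29.

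The promoter windows searched differed in the interferon motifs found in them. Sequences are those of RefSeq on GRCh38.p14, searched in the 250 bases before each annotated start on both strands. The core of an ISRE, searched as GAAA repeated 2 bases apart with any bases between, was found once, on the minus strand 24 bases before the start of the principal RSAD2 transcript, and 3.02% of 35116 windows of that length hold it. The stretch that carries this match, free of annotated exons, is shown from chr2:6877527-6877664 on the plus strand, with the match in capitals.
RSAD2 promoter: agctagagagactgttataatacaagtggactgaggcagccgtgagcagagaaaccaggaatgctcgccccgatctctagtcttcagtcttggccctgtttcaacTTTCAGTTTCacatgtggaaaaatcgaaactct

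Between CMPK2 and the upstream RSAD2 start, the letters GAAANGAAA, with GAAA repeated 1 base apart, occurred 4 times within the window before the upstream RSAD2 start, at 37, 71, 105 and 129 bases before the start of the principal CMPK2 transcript. Of these, only copy 4 below lies within 250 bases before a RefSeq start of CMPK2. This motif was added after the sequences were read, and 2.69% of the windows hold it. The 4 copies are shown with their flanks on the plus strand, with the motif in capitals, at chr2:6865728-6865747, chr2:6865762-6865781, chr2:6865796-6865815 and chr2:6865820-6865839.
CMPK2 copy 1: cctcgGAAACGAAAcctggc
CMPK2 copy 2: ggcggGAAACGAAAcccgga
CMPK2 copy 3: agcggGAAACGAAAgcgaag
CMPK2 copy 4: gcgggGAAACGAAAgccgga

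The SAMHD1 window held neither of these motifs, nor the single IRF site AANNGAAA, which 20.3% of windows hold and which overlaps the RSAD2 match and each of the 4 copies. This window was placed by a RefSeq start that lies inside the principal SAMHD1 transcript. Only 57 of its 250 bases lie before the start of that transcript, and bases further out were not searched. A gamma-activated site, TTCNNNGAA, which 6.57% of windows hold, was found in no window of the 3 genes. The outer stretch of the SAMHD1 window, free of annotated exons, is shown in lower case from chr20:36951902-36951958 on the minus strand, to set beside the RSAD2 stretch.
SAMHD1 promoter: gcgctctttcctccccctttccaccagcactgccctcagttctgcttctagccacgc

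Total counts per library ran from 12404270 to 28801579, and values below are counts per 1e+06 counts (CPM) after TMM scaling. SP140, the gene that holds the targeted element, averaged 1.23 ± 0.288 CPM in LTR8B IFNB cells and 30.9 ± 1.56 CPM in GFP IFNB cells, with 1.25 ± 0.570 CPM in LTR8B untreated cells and 30.3 ± 0.728 CPM in GFP untreated cells. Of 10 mesenchymal markers, 9 had a mean of at least 1 CPM, and their summed level was 4571 to 5375 CPM over the libraries. Of 10 epithelial markers, 3 reached that mean, with a summed level of 362 to 451 CPM over the libraries, and KRT5 was at 0 in every library. KRT8, a keratin of simple epithelia, averaged 269 CPM in LTR8B IFNB, 244 CPM in LTR8B untreated, 277 CPM in GFP IFNB and 284 CPM in GFP untreated cells, and its partner KRT18 averaged 143 CPM in LTR8B IFNB, 138 CPM in LTR8B untreated, 131 CPM in GFP IFNB and 148 CPM in GFP untreated cells. Of 10 haematopoietic markers, 3 reached it, led by CD68. Their summed level was 124 to 144 CPM in LTR8B IFNB and 99.3 to 118 CPM in LTR8B untreated libraries, and 134 to 138 CPM in GFP IFNB and 110 to 122 CPM in GFP untreated libraries. PTPRC, which encodes the pan-leukocyte protein CD45, averaged at most 0.0328 CPM in a group. Averaged over treatments, LAPTM5 and CSF1R were lower in LTR8B than in GFP cells (log2 fold change -1.12 and -0.57, adjusted p = 0.00154 and 0.00486, edgeR). So were the mesenchymal markers SPARC and COL1A1 (-0.22 and -0.64, adjusted p = 0.0289 and 0.0492, edgeR). No other listed marker passed there, beside 2.14% of all tested genes. In LTR8B cells CD68 alone of the 5 tested haematopoietic markers passed with IFNB (log2 fold change 0.30, adjusted p = 0.0124, edgeR). CSF1R had -0.05, LAPTM5 -0.13, ITGAM -0.29 and CD3E 0.22. In GFP cells 0 passed, with CD68 at 0.27 (adjusted p = 0.217, edgeR). The part of this CD68 shift in the IFNB responses below was not tested.

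Viperin RNA was near 0 without IFNB and abundant with it. RSAD2 had 2575, 2719, 1634 and 2487 counts in the LTR8B IFNB libraries, against 0, 0, 3 and 0 counts in the LTR8B untreated libraries. It had 3404 and 2820 counts in the GFP IFNB libraries, against 0 and 1 counts in the GFP untreated libraries. Treated and untreated libraries did not come near each other, and every untreated library was at or below the 3 counts that a count of 0 allows. The level was 131 ± 2.60 CPM in LTR8B IFNB cells (SD, n = 4), and the 4 libraries lay within 127 and 133 CPM. In GFP IFNB cells it was 151 ± 15.6 CPM (SD, n = 2), from libraries at 162 and 140 CPM. Whether fewer cells carry a transcript or each carries less cannot be told apart in bulk RNA.

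Pooled over the libraries of a group, RSAD2 was 3932 times higher with IFNB in LTR8B cells, with an exact 95% counting interval of 1345 to 19068. In GFP cells it was 7224 times higher, with an interval of 1296 to 285395. These ratios rest on 3 and 1 untreated counts. Without the single LTR8B untreated library that had counts, the other 3 were at 0. Set against 3 counts over those libraries, the pooled level in LTR8B cells was 2633-fold higher with IFNB. Without the GFP untreated library with 1 count, the pooled level in GFP cells was 1336-fold higher, set against 3 counts in the library left. Neither value is a lower limit of the response, since the library with counts was left out. Over all libraries the intervals start lower, at 1345 and 1296. In edgeR's quasi-likelihood test the log2 fold change was 11.71 (SE 0.84, adjusted p = 9.36e-18) in LTR8B cells and 12.45 (SE 1.45, adjusted p = 1.51e-15) in GFP cells. These p-values are given as a description, since RSAD2 passed the filter on low counts only through the IFNB libraries. RSAD2 had the highest fitted log2 fold change of 16393 tested genes in both lines, although a fitted value over so few counts depends on the prior count.

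**Figure D1:**
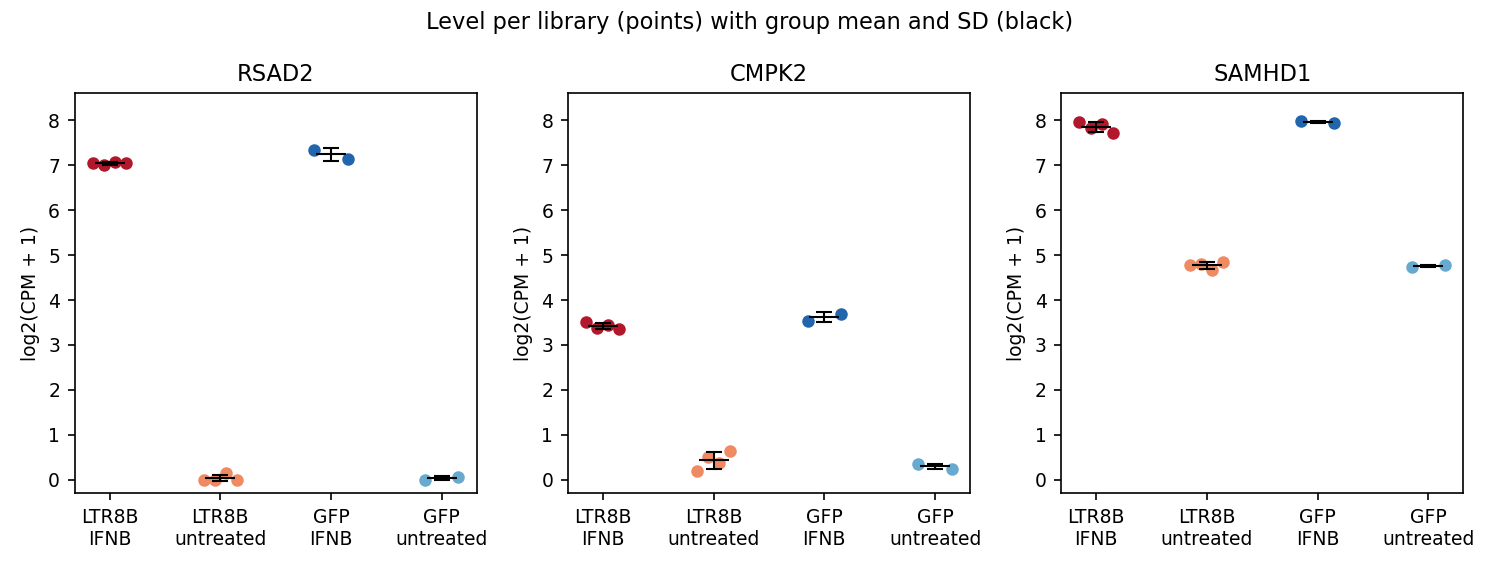
Level of RSAD2, CMPK2 and SAMHD1 as log2(CPM + 1) in each of the 12 libraries (points), by group, with the group mean and SD in black. In each gene all IFNB libraries lie above all untreated libraries, RSAD2 lies near 0 without IFNB, and SAMHD1 is the only one of the 3 with a clear untreated level, at 24.5 to 27.8 CPM.

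CMPK2, the kinase gene beside RSAD2, followed the same direction at a far lower level. It was at 10.5, 9.43, 9.92 and 9.22 CPM in the LTR8B IFNB libraries, against 0.138, 0.412, 0.301 and 0.566 CPM in the LTR8B untreated libraries. In the GFP IFNB libraries it was at 10.6 and 11.9 CPM, against 0.265 and 0.188 CPM in the GFP untreated libraries. The untreated values rest on 3 to 11 counts per library, so their differences are not resolved at this depth. The pooled ratio was 28.4 in LTR8B cells (exact 95% counting interval 19.8 to 42.1) and 48.9 in GFP cells (27.1 to 98.6). The log2 fold change was 4.80 (SE 0.26, adjusted p = 7.40e-12, edgeR) in LTR8B cells and 5.58 (SE 0.42, adjusted p = 3.76e-10, edgeR) in GFP cells. CMPK2 passed the filter on low counts only through the IFNB libraries, so these p-values are given as a description.

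SAMHD1, the dNTP hydrolase gene, was already expressed without IFNB. It was at 248.7, 225.9, 243.0 and 209.1 CPM in the LTR8B IFNB libraries, against 26.3, 27.1, 24.5 and 27.8 CPM in the LTR8B untreated libraries. In the GFP IFNB libraries it was at 252 and 246 CPM, against 25.9 and 26.4 CPM in the GFP untreated libraries. Untreated libraries of both lines lay within 24.5 and 27.8 CPM, while the LTR8B IFNB libraries spread more widely than the GFP IFNB libraries. The log2 fold change was 3.13 (SE 0.06, adjusted p = 3.70e-16, edgeR) in LTR8B cells and 3.25 (SE 0.09, adjusted p = 5.82e-14, edgeR) in GFP cells, which is 8.78-fold and 9.53-fold.

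In LTR8B cells 4.01% of tested genes were higher and 0.482% lower with IFNB at an adjusted p under 0.05, and in GFP cells 3.06% were higher and 0.134% lower. Among those higher were RSAD2, CMPK2 and SAMHD1, in both lines. RSAD2 and CMPK2 passed the filter on low counts only through the IFNB libraries, so that their being higher is no separate evidence; SAMHD1 passed it in untreated libraries as well. By fitted log2 fold change CMPK2 ranked 41 in LTR8B and 36 in GFP cells, and SAMHD1 ranked 76 and 89. An exact two-sided permutation of log2(CPM + 1) within each line and over both gave p = 0.00476 for each gene, the smallest of its 420 arrangements. In LTR8B cells alone the exact permutation gave p = 0.0286, the smallest of 70 arrangements, and in GFP cells alone p = 0.333, the smallest of 6. For RSAD2 and CMPK2 the permutation p-values are a description too, because of the filter. These permutations did not keep same-numbered libraries together, although same-numbered LTR8B libraries appeared paired, less clearly so for replicate 3.

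**Figure D2:**
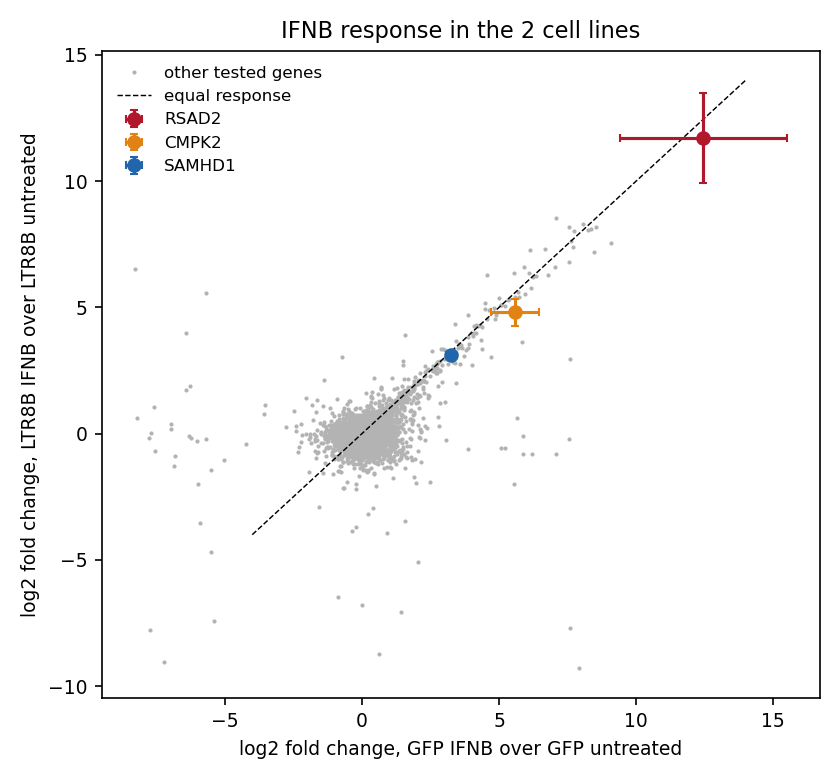
Log2 fold change of IFNB over untreated in GFP cells (horizontal axis) and in LTR8B cells (vertical axis) for all tested genes (grey), with the 95% intervals of RSAD2, CMPK2 and SAMHD1. The 2 axes share no library; RSAD2 lies at the far end, at 12.45 and 11.71, and only SAMHD1 has an interval narrower than its symbol or close to it.

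The responses of the 3 genes were set against each other by their ratios within a library, where no scaling is needed. After 0.5 was added to each count, the log2 ratio of RSAD2 to SAMHD1 counts was 8.72 higher with IFNB than without (exact p = 0.00476, the smallest of 420 arrangements within lines). That of RSAD2 to CMPK2 was 6.72 higher, and that of CMPK2 to SAMHD1 was 1.997 higher, with the same exact p = 0.00476 each. With same-numbered libraries paired, an exact sign-flip test gave p = 0.0312 for each of the 3 ratios. The sizes depend on the count added: with 3 added they were 6.66 for RSAD2 to SAMHD1, 5.12 for RSAD2 to CMPK2 and 1.54 for CMPK2 to SAMHD1. The untreated ratios rest on 0 to 3 counts of RSAD2 and 3 to 11 counts of CMPK2, and both genes passed the filter on low counts only through the IFNB libraries, so these differences are given as a description and no order is drawn from their p-values.

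Levels between genes were compared per kilobase of the principal transcript. With IFNB, SAMHD1 was at 43.7 ± 3.38 CPM per kb in LTR8B cells and 47.0 ± 0.883 in GFP cells, and RSAD2 followed at 37.2 ± 0.740 in LTR8B cells and 43.0 ± 4.43 in GFP cells. The level of RSAD2 per kb was below that of SAMHD1 in each of the 6 IFNB libraries, at 0.795 to 0.969 times its level, a gap that would change with the transcript length assumed. CMPK2 was lowest, at 3.38 ± 0.191 CPM per kb in LTR8B cells and 3.91 ± 0.319 in GFP cells. RSAD2 was thus 11.0 ± 0.577 times CMPK2 per kb in LTR8B IFNB libraries and 11.0 ± 2.03 times in GFP IFNB libraries.

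Without IFNB the order was another one. SAMHD1 was at 4.99 ± 0.262 CPM per kb in LTR8B untreated and 4.93 ± 0.0706 in GFP untreated cells. CMPK2 was at 0.123 ± 0.0625 in LTR8B untreated and 0.0785 ± 0.0187 in GFP untreated cells, and RSAD2 at 0.00714 ± 0.0143 in LTR8B untreated and 0.00669 ± 0.00947 in GFP untreated cells. RSAD2 had fewer counts than CMPK2 in each of the 6 untreated libraries, on 0 to 3 counts of RSAD2 against 3 to 11 counts of CMPK2, which does not resolve every single library. Relative to SAMHD1 in the same library, and with 0.5 added to each count, which largely sets the untreated values, RSAD2 per kb was at 0.854 ± 0.0671 in LTR8B IFNB against 0.00283 ± 0.00290 in LTR8B untreated libraries, and at 0.915 ± 0.0772 in GFP IFNB against 0.00256 ± 0.00207 in GFP untreated libraries.

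**Figure D3:**
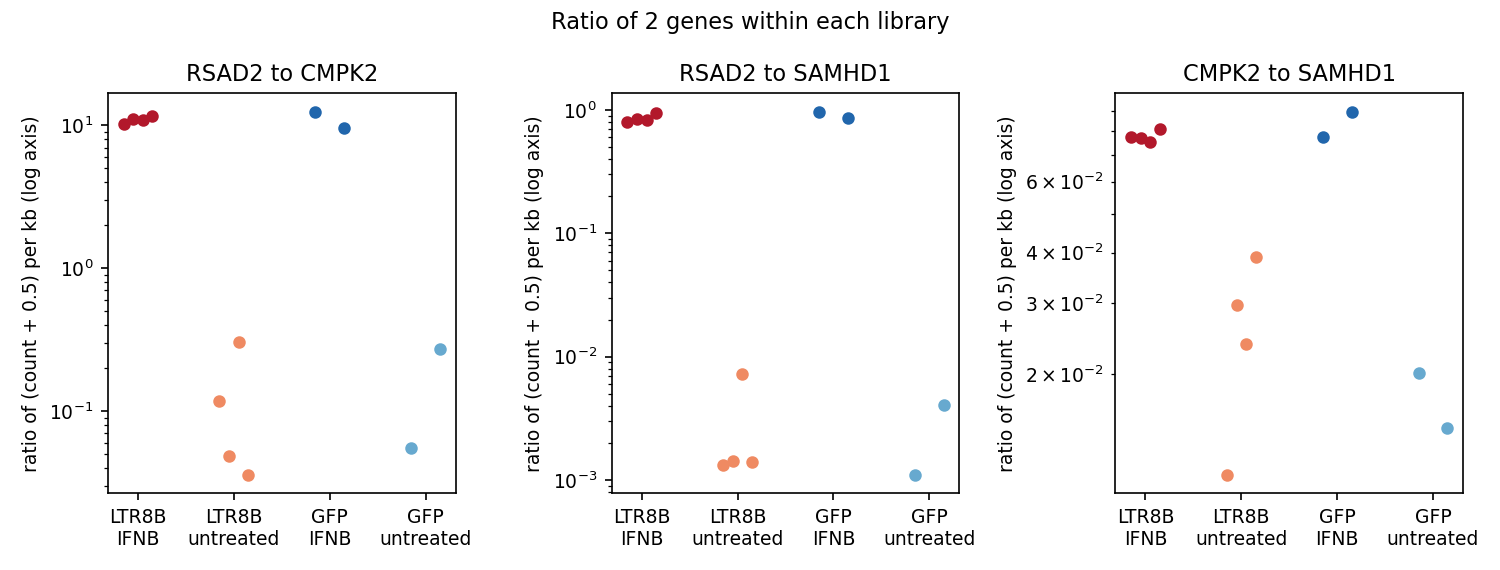
Ratio of 2 genes within each library, each taken as count plus 0.5 per kilobase of transcript, on log axes whose ranges differ between panels. The IFNB libraries lie close together at about 11.0 for RSAD2 to CMPK2, and the untreated libraries scatter because they rest on few counts.

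The LTR8B guide was compared with the GFP guide to see whether lowering SP140 went with a different level of these genes. With IFNB, all 4 LTR8B libraries lay below both GFP libraries for RSAD2 and for CMPK2, and so did 9.43% of tested genes. The log2 fold change of RSAD2 was -0.21 (95% interval -0.41 to -0.02), with an unadjusted p = 0.0352 and an adjusted p = 0.493 in edgeR. That of CMPK2 was -0.21 (95% interval -0.56 to 0.14, adjusted p = 0.742, edgeR). The exact permutation gave p = 0.0667 for each, the smallest of 15 arrangements, so that the design cannot reach 0.05 here. For SAMHD1 the groups overlapped, and the log2 fold change was -0.10 (95% interval -0.26 to 0.05, adjusted p = 0.705, edgeR). In this comparison 0.354% of tested genes passed the threshold.

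In untreated cells SAMHD1 differed by 0.01 on the log2 scale between LTR8B and GFP cells (95% interval -0.16 to 0.19, adjusted p = 0.968, edgeR), where 0.360% of tested genes passed. CMPK2 differed by 0.57 (95% interval -0.41 to 1.54, adjusted p = 0.673, edgeR), on 31 counts in 4 LTR8B libraries and 11 counts in 2 GFP libraries. RSAD2 had 3 counts in all LTR8B untreated libraries and 1 count in all GFP untreated libraries, a ratio of 1.58 with an exact 95% interval of 0.127 to 83.1, so a guide difference was not detectable at this depth. Averaged over treatments, the guide effect was 0.16 for RSAD2 (adjusted p = 0.930), 0.18 for CMPK2 (adjusted p = 0.780) and -0.04 for SAMHD1 (adjusted p = 0.755) in edgeR, where 2.14% of tested genes passed. The 95% interval of the averaged effect was -0.16 to 0.07 for SAMHD1, -0.34 to 0.70 for CMPK2 and -1.60 to 1.93 for RSAD2.

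The IFNB response itself was also compared between the lines. The response in LTR8B cells minus that in GFP cells was -0.12 on the log2 scale for SAMHD1 (95% interval -0.35 to 0.11), -0.78 for CMPK2 (-1.81 to 0.26) and -0.75 for RSAD2 (-4.28 to 2.78), each with an adjusted p = 0.996 in edgeR. No gene passed this test, which is 0% of those tested. At an unadjusted p under 0.05 edgeR found 489 genes, and DESeq2 and limma-voom also found 0 genes past the threshold. The intervals for CMPK2 and RSAD2 rest on few untreated counts. Ratios within the IFNB libraries were also set against each other between the guides, where the smallest exact p of 15 arrangements is 0.0667 and 0.05 cannot be reached. The log2 ratio of RSAD2 to CMPK2 differed by 0.00113 (exact p = 0.933), that of RSAD2 to SAMHD1 by -0.10 (exact p = 0.333) and that of CMPK2 to SAMHD1 by -0.10 (exact p = 0.133).

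**Figure D4:**
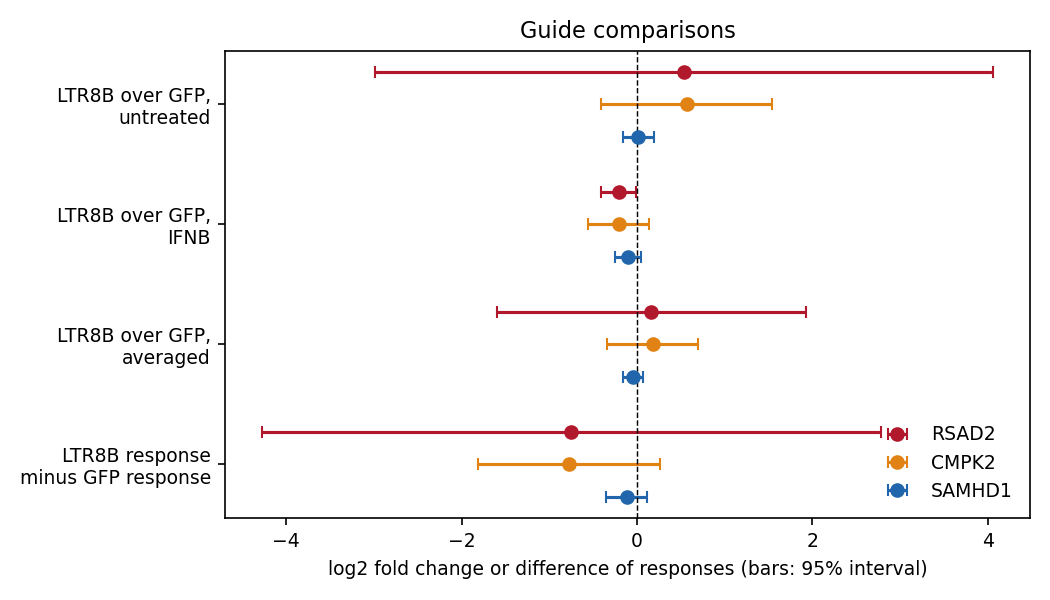
Log2 fold change of LTR8B over GFP cells in untreated cells, with IFNB and averaged, and the difference of the 2 IFNB responses, for RSAD2, CMPK2 and SAMHD1 with 95% intervals. Of these intervals only that of RSAD2 with IFNB, at -0.41 to -0.02, lies on one side of 0, and it did not pass after adjustment.

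None of the listed enzymes that make nucleotides passed the test with IFNB. Of 22 listed genes for dNTP and CTP synthesis, 0 passed in either line by edgeR, DESeq2 or limma-voom. Over all tested genes 4.01% were higher and 0.482% lower in LTR8B cells, and 3.06% and 0.134% in GFP cells. Beside such small shares, 0 of 22 is no result about the list. At an unadjusted p under 0.05 in edgeR there were 0 in LTR8B and 4 in GFP cells, beside 2110 and 1849 of 16393 tested genes. The list's median log2 fold change was 0.01 in LTR8B and -0.08 in GFP cells, beside -0.01 over all tested genes in both. RRM2, a subunit of ribonucleotide reductase, averaged 229 ± 20.3 CPM in LTR8B IFNB and 213 ± 12.9 CPM in LTR8B untreated cells. CMPK1, the cytosolic counterpart of CMPK2, averaged 145 ± 19.4 CPM in LTR8B IFNB and 143 ± 19.8 CPM in LTR8B untreated cells. In GFP cells CMPK1 averaged 142 ± 12.6 CPM with IFNB and 117 ± 9.40 CPM untreated, a log2 fold change of 0.28 (adjusted p = 0.535, edgeR). CTPS1, which makes the CTP that viperin uses, averaged 157 ± 7.41 CPM in LTR8B IFNB and 152 ± 11.2 CPM in LTR8B untreated cells.

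Among genes for nucleotide breakdown and pool sanitation, 2 of 21 were higher with IFNB in both lines and 0 were lower, beside 4.01% of all tested genes higher in LTR8B and 3.06% in GFP cells. The first was PNPT1, the mitochondrial polynucleotide phosphorylase, which averaged 365 ± 20.9 CPM in LTR8B IFNB and 118 ± 6.04 CPM in LTR8B untreated cells, a log2 fold change of 1.63 (SE 0.05, adjusted p = 3.12e-13, edgeR). In GFP cells its log2 fold change was 1.69 (SE 0.08, adjusted p = 5.11e-11, edgeR). The second was NT5C3A, a pyrimidine nucleotidase that dephosphorylates CMP and UMP. It rose by 0.41 in LTR8B cells (SE 0.08, adjusted p = 0.00195, edgeR) and by 0.46 in GFP cells (SE 0.11, adjusted p = 0.0201, edgeR). With any 1 of the 4 GFP libraries left out, the GFP call of NT5C3A was lost, at adjusted p = 0.053 to 0.221. The list's median log2 fold change was 0.05 in LTR8B and 0.03 in GFP cells.

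SAMHD1 is switched by phosphorylation, through cyclin-dependent kinases and the phosphatase PP2A, and assists DNA end resection. Of 20 listed kinases, cyclins, phosphatase subunits and repair partners, 19 were tested and CCND2 was below the filter on low counts. Of them 1 was higher with IFNB, in both lines, and 0 were lower, which is near the 4.01% and 3.06% of all tested genes and is no result about the list. The gene was NBN, a subunit of the MRE11-RAD50-NBN complex, which rose by 0.49 in LTR8B cells (SE 0.06, adjusted p = 5.52e-05, edgeR) and by 0.65 in GFP cells (SE 0.09, adjusted p = 0.000135, edgeR). CDK1 averaged 137 ± 6.92 CPM in LTR8B IFNB and 133 ± 8.31 CPM in LTR8B untreated cells, and CCNA2, which encodes cyclin A, averaged 103 ± 4.65 CPM in LTR8B IFNB and 103 ± 4.41 CPM in LTR8B untreated cells. Of 19 genes for viperin maturation and partner proteins, among them the cytosolic iron-sulfur assembly genes CIAO1 and MMS19, 0 passed in either line by any of the 3 tools. Beside the shares of all tested genes above, this too is no result about the list. At an unadjusted p under 0.05 in edgeR there were 1 in LTR8B and 2 in GFP cells, beside 2110 and 1849 of 16393 tested genes.

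Of 15 listed genes of interferon signalling and its feedback 14 were tested, and with IFNB 9 were higher in LTR8B cells and 8 in GFP cells, with 0 lower. Over all tested genes 4.01% were higher in LTR8B cells and 3.06% in GFP cells. Among listed genes that did not pass, the log2 fold changes in LTR8B cells were 0.10 for the receptor chain IFNAR1 (adjusted p = 0.776), 0.06 for the kinase JAK1 (adjusted p = 0.774) and -0.07 for the kinase TYK2 (adjusted p = 0.806) in edgeR. The median log2 fold change of the 14 was 1.40 in LTR8B and 1.35 in GFP cells, beside -0.01 over all tested genes in both. IRF9, the DNA-binding subunit of that complex, averaged 109 CPM in LTR8B IFNB and 4.58 CPM in LTR8B untreated cells (log2 fold change 4.55, SE 0.10, adjusted p = 6.23e-16, edgeR). STAT2, which brings the activating domain to it, rose by 2.28 on the log2 scale in LTR8B cells. USP18, a negative regulator of the receptor, rose by 6.21 and the ubiquitin-like modifier ISG15 by 5.10. IFNAR2 was higher in LTR8B cells by 0.47 (adjusted p = 0.00182, edgeR) and had 0.27 in GFP cells (adjusted p = 0.411, edgeR), with no gene past the test of the difference. IRF7, a factor that amplifies interferon responses, was below the filter and was listed at 0 in every IFNB library of both lines. Whether such counts reflect the cells or the counting cannot be told apart from this table. In the averaged guide effect 0 genes of the 5 lists passed in edgeR and limma-voom, beside 351 and 343 of 16393 tested genes. At an unadjusted p under 0.05 in edgeR there were 2 for synthesis, 3 for breakdown, 0 for SAMHD1 partners, 3 for viperin partners and 3 for signalling. Over all tested genes there were 2593 of 16393. DESeq2 called 1, 1, 0, 0 and 2 after adjustment, beside 590 of 16393. These counts are a description, and no list was tested as a set.

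**Figure D5:**
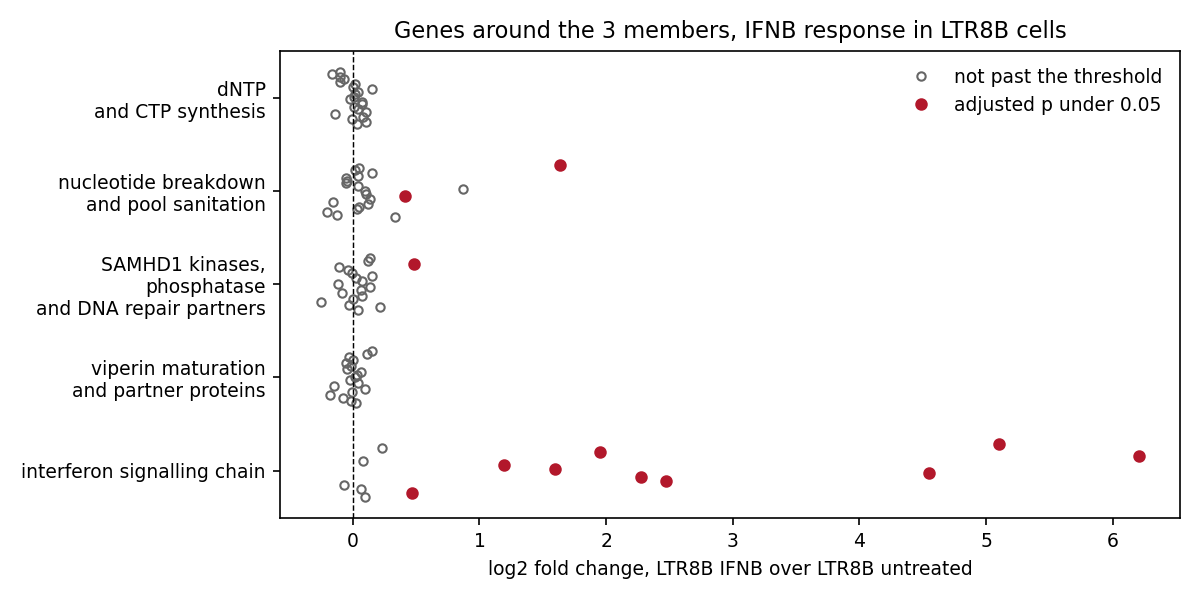
Log2 fold change of LTR8B IFNB over LTR8B untreated cells for each tested gene of the 5 lists (circles), with genes past an adjusted p of 0.05 filled in red. Genes past the threshold number 0, 2, 1, 0 and 9 from top to bottom, all of them higher with IFNB. Over all tested genes 4.01% were higher and 0.482% lower in this comparison.

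No tested neighbour of the 2 loci was higher with IFNB at the threshold, among the 3 nearest on each side. Over all tested genes 4.01% were higher and 0.482% lower in LTR8B cells, and 3.06% and 0.134% in GFP cells. Beside such small shares, this is no result about the loci. Some of these genes are far off: those on the CMPK2 side lie 839 to 3196 kb away, and LINC01814 lies 1608 kb beyond RSAD2. GRASLND and RNF144A, 14.04 and 19.15 kb beyond RSAD2, had log2 fold changes of 0.05 (adjusted p = 0.941) and 0.08 (adjusted p = 0.754) in LTR8B cells in edgeR. NRIR, a long noncoding RNA next to CMPK2, had 0 to 3 counts per LTR8B IFNB library, 1 to 5 per LTR8B untreated library, 3 and 5 in the GFP IFNB libraries and 4 and 2 in the GFP untreated libraries, and was not tested. As for IRF7, whether these counts reflect the cells or the counting cannot be told apart here. Near SAMHD1, RBL1 at 44.4 kb had 0.05 in LTR8B cells (adjusted p = 0.845). SOGA1, 26.1 kb away, was the exception: it fell by 0.28 on the log2 scale in LTR8B cells (SE 0.06, adjusted p = 0.00892, edgeR) and had -0.08 in GFP cells (adjusted p = 0.777). The difference of its 2 responses was -0.21 (adjusted p = 0.996, edgeR). TLDC2, on the opposite strand, shares 1159 exon bases with SAMHD1 but had 0 to 3 counts per library. Whether reads were counted by strand is not given in the sources at hand.

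Genes with the most similar profiles over the 12 libraries were other interferon-stimulated genes. Likeness was the root-mean-square difference between log2(CPM + 1) profiles centred on each gene's mean, over 12997 genes with a mean of at least 1 CPM other than the 3 members, and it is a description because the libraries share their treatment. The closest to RSAD2 were OAS2 at 0.134, which makes the RNase L activator, then MX2 at 0.317, IFIT3 at 0.426, IFIT2 at 0.466 and IFIT1 at 0.515. OAS2 averaged 429 ± 16.0 CPM in LTR8B IFNB and 2.56 ± 0.476 CPM in LTR8B untreated cells. The fitted log2 fold changes in LTR8B cells were 11.71 for RSAD2 and 7.37 for OAS2. On the log2(CPM + 1) scale the mean change of RSAD2 there was 7.01, so its closeness to OAS2 depends on the 1 added. The closest to SAMHD1 were DTX3L at 0.0931, IFIT5 at 0.102, TRIM21 at 0.123, HSH2D at 0.128 and GBP3 at 0.145. The same 5 genes were closest to CMPK2, with IFIT5 first at 0.129. CMPK2 and SAMHD1 were 0.110 apart and each was at least 1.98 from RSAD2. However, adding 1 to the CPM compresses the changes of CMPK2 and HSH2D toward that of SAMHD1.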

How the data were processed

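RNA-seq of polyadenylated RNA from 12 HT1080 libraries was analysed from raw, unnormalized gene counts deposited by the authors as whole numbers. Per the submitters' processing notes, reads were handled with Salmon 0.13.1, DESeq2 1.38.3 and hg38; the role of each is not given in the sources used here. A second deposited table of normalized values was not used. Genes were named from a table that matched 60415 of 60669 identifiers, of which 25271 were at 0 in every library.

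edgeR 4.0.16 in R 4.3.3 kept genes with filterByExpr (minimum count 10, minimum total 15), which left 16393. Libraries were scaled by TMM, CPM means scaled counts per 1e+06, and 1 robust quasi-likelihood model with a mean per group and no covariate was fitted to all 12 libraries. There were 6 contrasts, each adjusted by Benjamini-Hochberg over all tested genes, with a threshold of 0.05. SE and 95% intervals are Wald values from the fitted information and the moderated dispersion, and p-values come from the quasi-likelihood F-test. Ratios of pooled counts have exact conditional binomial intervals. These intervals and limits cover counting error only, and a count of 0 allows 3 counts. Exact permutation tests were two-sided, over samples. The fit was tested on simulated data. Replicate pairs differed beyond sampling noise (chi-square per degree of freedom 2.74 to 17.4), so no library was a duplicate.

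Same-numbered LTR8B IFNB and LTR8B untreated libraries appeared paired, although the labels state no pairing. Their deviations from the group means correlated at 0.408, 0.527, 0.140 and 0.417. LTR8B untreated replicate 3 correlated slightly more with LTR8B IFNB replicate 4 (0.155), so its pairing is not clear. The GFP groups have only 2 numbers (0.218), and across guides no pairing was found (-0.375 to -0.0472 for replicates 1 and 2).

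Members and lists were chosen with earlier results of these data known. Named genes were the 3 members and SP140, up to 6 called genes per list, the 5 closest profiles per member and the 3 nearest tested genes on each side; RRM2, CMPK1, CTPS1, CDK1, CCNA2, CIAO1, MMS19 and genes below the filter were added for their roles, with values seen. The values of 1 called list gene are not reported here. Alternatives were other scalings, filters, DESeq2 1.42.0, limma-voom 3.58.1, the replicate block, subsets of groups and leaving out each library. Other steps used Python 3.11.15, SciPy 1.17.1, NumPy 2.4.6 and pandas 2.3.3, and figures were drawn in matplotlib 3.10.9.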

Additional observations from a re-analysis of the deposited data

Results flagged for a closer look

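RSAD2 in LTR8B untreated replicate 3 stood apart from its group, at 0.100 CPM (3 counts) while the other 3 libraries were at 0. It is also the deepest library, with 28801579 counts; the exact 95% Poisson interval is 0.0207 to 0.294 CPM, and the limits that 0 counts allow in the other 3 libraries are 0.138 to 0.155 CPM, above its value. The log2 ratio of RSAD2 to SAMHD1 in that library, -7.71, stood apart for the same 3 counts, from -10.16 to -10.04 in the other 3. Of 12 groups of 4 tested in this way, 2 stood apart, both on the same 3 counts. Chance alone marks about 1 in 20 where values are normally distributed. That rate does not hold here, since with the other 3 libraries at 0 any count would have stood apart.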

How the results depend on the processing

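The IFNB responses of RSAD2, CMPK2 and SAMHD1 kept their direction and their side of the threshold under all 126 alternatives, and the guide effects and response differences in 235 of 244. With GFP libraries only, the differences of response were 6.49 for RSAD2 minus CMPK2, 8.76 for RSAD2 minus SAMHD1 and 2.27 for CMPK2 minus SAMHD1, with an exact p = 0.333 each, the smallest that 6 arrangements allow. The averaged guide effect of RSAD2 was -0.090 with limma-voom. Leaving out 1 library at a time, the guide effect of RSAD2 ran from -2.13 to 2.71 in untreated cells and from -1.17 to 1.25 averaged, and its response difference from -2.92 to 1.92. These signs turned without GFP untreated replicate 1 (-0.44, -0.32 and 0.23) or LTR8B untreated replicate 3 (-2.13, -1.17 and 1.92), which leaves 0 counts in the other LTR8B untreated libraries. The untreated guide effect of SAMHD1 ran from -0.0075 to 0.051, and turned without GFP untreated replicate 1 (-0.00084) or LTR8B untreated replicate 4. No other cause was tested. With 3 in place of 0.5 added to each count, the differences of response were 5.12 for RSAD2 minus CMPK2, 6.66 for RSAD2 minus SAMHD1 and 1.54 for CMPK2 minus SAMHD1.

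With the replicate block, paired within each line, the log2 fold changes with IFNB in LTR8B cells were 11.71 for RSAD2, 4.80 for CMPK2 and 3.13 for SAMHD1, and the block changed no call of the 3 genes. Counts of list genes changed in 23 of 620 alternatives, by at most 1 gene. Of the single genes named, NT5C3A lost its GFP call in 4 alternatives and the other 1024 outcomes kept theirs. A fit on untreated libraries alone gave no value for RSAD2 and CMPK2, which were then below the filter.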

Other observations

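Over all tested genes matched to a promoter window, 19.5% of the 399 genes with the ISRE core in the 250 bases before a start were higher with IFNB in LTR8B cells and 17.3% in GFP cells. Of the 363 genes with GAAA repeated 1 base apart, as beside CMPK2, 13.8% were higher in LTR8B and 12.9% in GFP cells. Of the 10709 genes with neither in the windows searched, 3.74% were higher in LTR8B and 2.68% in GFP cells. SAMHD1 is among them, although its window holds only 57 bases before the start of its principal transcript. These shares are descriptions, and no test was made.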
